A study of Mus musculus with 36 samples.

Results

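The comparison described here sets the liver transcriptome of Tet1 KO YAP Tg mice against that of control mice, and asks which genes differ from normal liver when a YAP transgene is on and Tet1 is, per the labels, deleted. It rests on 6 RNA-seq libraries of the 36 samples in the series, 3 of each group, chosen by their labels alone. The Tet1 KO YAP Tg mice had the genotype Tet1 -/- YAP Tg and the control mice were wild type. The 3 libraries of YAP Tg mice, which carry the transgene with no label of a Tet1 deletion, entered the same fit and are given beside the others to show where the levels differ between the transgenic livers. All mice in these groups were C57BL/6 and received doxycycline, which the protocols give at 50 mg/L in the drinking water of mice aged 1 month or of mothers nursing newborn pups, for a time that the labels do not give. The age of the animals behind these libraries, the promoter or cell type that drives the transgene, the species of the transgenic YAP, and the deleted part of Tet1 are not given in the sources used here, nor is it said whether replicates are different animals. No group had the Tet1 deletion without the transgene, so the effects of both alleles in Tet1 KO YAP Tg livers cannot be told apart in a comparison with controls. The 3 decitabine libraries and the 24 DNA samples are not used here.

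YAP is a co-activator that the kinases of the Hippo pathway keep out of the nucleus. When it is let in, it binds TEAD proteins on DNA and turns on genes of growth and of the cytoskeleton, and in mouse liver its overexpression enlarges the organ and shifts hepatocytes toward a fetal or ductal state. TET1 is a dioxygenase that oxidises 5-methylcytosine and so opens a way to remove DNA methylation. Adult hepatocytes divide their work along the lobule, with glutamine synthesis and much of drug oxidation near the central vein and urea synthesis and gluconeogenesis near the portal tract.

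Levels are given as the deposited normalised reads, which are reads scaled to an effective library size. They are not divided by gene length, so levels of different genes are not compared. The libraries held 22766044, 22347119 and 19082417 reads in Tet1 KO YAP Tg, 23528750, 24765820 and 23468633 in YAP Tg, and 19986112, 25067861 and 19954131 in controls. The libraries of a group were close to each other. Beyond read sampling, their coefficient of variation was 0.0242 to 0.0316 among Tet1 KO YAP Tg and 0.00887 to 0.0433 among YAP Tg libraries. For control libraries 1 and 3 it was 0.0233. Control library 2 stood apart from control libraries 1 and 3, at 0.136 and 0.128. Because the labels do not say that libraries are separate animals, p-values here measure the spread between these libraries, which may be technical. They are not repeat reads of 1 library, since Xist, the RNA of the inactive X chromosome, had 2, 269 and 70 reads in the Tet1 KO YAP Tg libraries, 162, 4 and 5 in the YAP Tg libraries and 220, 345 and 2 in the control libraries. As a strict alternative, results are also given after averaging the libraries of a group whose coefficient of variation was below 0.05, a fit called the averaged fit below. In it Tet1 KO YAP Tg has 1 library and control has 2, and the spread comes from control library 2 against the mean of the other controls. A call can be lost there because fewer libraries remain or because the controls spread more, and which of these applied was not tested. Because the averaged fit uses means of the same libraries, direction and size there are largely fixed in advance and give no independent support. For the 202 named genes that passed, the median shift in the log2 difference was 0.0488. The largest shift was 0.94, for Rn45s, the ribosomal RNA precursor.

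The targeted gene did not separate the groups. Tet1 (chr10:62804569-62880014, mm10, minus strand) had 1.25, 0.954 and 0.586 normalised reads in Tet1 KO YAP Tg, 9.90, 8.59 and 8.97 in YAP Tg and 0.935, 0.756 and 0.356 in control livers. The Tet1 KO YAP Tg and control ranges overlapped (log2 difference 0.28, SE 0.21, adjusted p = 0.32), while YAP Tg libraries were higher than both. Tet1 reads in Tet1 KO YAP Tg livers are thus at the low level of wild type livers and do not show the deletion, and reads on exons that remain after a partial deletion would count here too. The other dioxygenases of the family did not pass the test either, with Tet2 at 28.1 in Tet1 KO YAP Tg, 30.7 in YAP Tg and 28.6 in control livers. Tet3 averaged 22.7 in Tet1 KO YAP Tg, 26.5 in YAP Tg and 25.7 in control livers. Without control library 2, Tet3 passed it as lower (adjusted p = 0.00252). Leaving out that library takes away most of the spread between controls, and 7488 genes passed then, against 5354 with it. Calls gained that way, here and below, rest on the spread of libraries that were close to each other. Yap1 was at 48.5, 52.5 and 52.4 in Tet1 KO YAP Tg, 27.6, 32.1 and 29.9 in YAP Tg and 58.6, 47.1 and 58.8 in control livers (log2 difference -0.093, SE 0.09, adjusted p = 0.443), and these reads cannot be assigned to the mouse gene or to the transgene. Without control library 2, Yap1 too passed as lower (adjusted p = 0.0101).

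Fewer genes passed the test in Tet1 KO YAP Tg against control livers than in YAP Tg against control livers. Of 13730 genes tested with limma, 5354 (39.0%) passed at an adjusted p below 0.05, with 2769 (20.2%) higher and 2585 (18.8%) lower in Tet1 KO YAP Tg livers. A change of at least 2-fold was seen for 517 of them (3.77%), 260 higher (1.89%) and 257 lower (1.87%). In YAP Tg against control livers 9682 genes passed (70.5%), and 3273 (23.8%) of those tested passed by at least 2-fold. Both comparisons use the same control libraries. The transgenic groups differed from each other in 9251 genes (67.4%), 2830 (20.6%) by at least 2-fold. The averaged fit left 189 genes (1.38%) in Tet1 KO YAP Tg against control livers, 90 higher (0.655%) and 99 lower (0.721%). Fewer libraries and a spread taken from the controls alone both enter this fall, and their parts were not tested. The median log2 difference of all genes tested was 0.022. Tet1 KO YAP Tg and control libraries did not overlap for 45.7% of all genes tested, so that lack of overlap alone is common here. In RNA of whole tissue, fewer cells of a type and less RNA per cell cannot be told apart, and this holds for every level below.

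**Figure D1:**
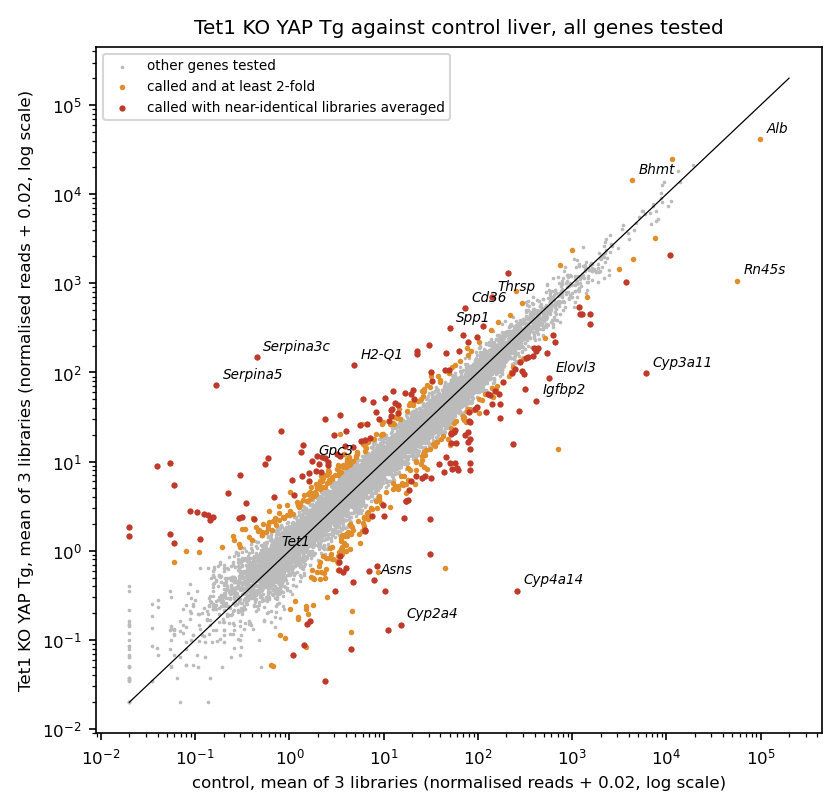
Mean normalised reads of each gene in Tet1 KO YAP Tg livers (vertical axis, log scale) against control livers (horizontal axis, log scale), with 0.02 added to both, for the 13730 genes tested; orange points passed the test by at least 2-fold, red points passed in the averaged fit, and the line marks equal levels. Most genes lie along the line, and Serpina3c, Serpina5 and H2-Q1 lie above it while Cyp4a14, Cyp3a11 and Asns lie below it.

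The YAP and TEAD target genes were split, with Ajuba, Amotl2 and Cyr61 above control and Ctgf and Ankrd1 near control level. Of 21 tested, 7 were higher, 3 lower and 11 did not pass, with a median log2 difference of 0.30. The share that passed was 47.6%, against 39.0% of all genes tested. Ajuba, a LIM protein that restrains the kinase LATS, had 21.1, 23.3 and 21.1 normalised reads in Tet1 KO YAP Tg, 66.9, 65.7 and 62.6 in YAP Tg and 3.51, 4.58 and 3.68 in control livers. For Ajuba the log2 difference was 2.34 (SE 0.093, adjusted p = 7.32e-09). Amotl2, a junctional scaffold that binds YAP, had 64.3, 62.1 and 66.6 in Tet1 KO YAP Tg, 156, 158 and 150.5 in YAP Tg and 20.6, 17.1 and 22.8 in control livers. For Amotl2 the log2 difference was 1.66 (SE 0.086, adjusted p = 7.09e-08). Both lay above every control library and below every YAP Tg library. Cyr61, a secreted matricellular protein, was intermediate too, at 18.3, 16.5 and 16.5 in Tet1 KO YAP Tg, 62.6, 62.1 and 67.4 in YAP Tg and 6.31, 4.94 and 6.05 in control livers. For Cyr61 the log2 difference was 1.496 (SE 0.092, adjusted p = 3.01e-07). Crim1, a membrane protein that binds bone morphogenetic proteins, had 69.7, 70.8 and 78.2 in Tet1 KO YAP Tg, 72.5, 70.999 and 73.7 in YAP Tg and 33.1, 21.3 and 31.3 in control livers (log2 difference 1.36), and its Tet1 KO YAP Tg and YAP Tg libraries overlapped. Ctgf and Ankrd1, which like Cyr61 are widely used as readouts of YAP, were near control. Ctgf had 22.8, 22.4 and 22.1 in Tet1 KO YAP Tg, 144, 148 and 151 in YAP Tg and 22.7, 12.3 and 21.4 in control livers (adjusted p = 0.192 against control). Ankrd1 had 0.715, 0.636 and 0.586 in Tet1 KO YAP Tg, 61.8, 65.7 and 65.6 in YAP Tg and 0.760, 0.178 and 0.356 in control livers (adjusted p = 0.162). Ankrd1 passed the test once control library 1 was left out (adjusted p = 0.00617). In the other direction Nt5e, an ectonucleotidase that makes adenosine, was lower at 7.97 in Tet1 KO YAP Tg, 4.92 in YAP Tg and 21.9 in control livers. The averaged fit kept Ajuba, Amotl2 and Cyr61 (adjusted p = 0.00776, 0.0143 and 0.0333) and not Crim1 (0.0575) or Nt5e (0.06).

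The promoters of some of these targets are printed because TEAD proteins bind DNA directly and the targets behaved differently from each other. Each runs from 250 bases before to 50 bases after the start of the gene in RefSeq on GRCm38.p6, the assembly of mm10, 5′ to 3′ on the strand of the gene. In capitals is each match to the TEAD core GGAATG, or to its complement CATTCC on the other strand. Ajuba lies at chr14:54577612-54577911 (minus strand) and Amotl2 at chr9:102717554-102717853 (plus). Cyr61, listed by RefSeq under its newer symbol Ccn1, lies at chr3:145649936-145650235 (minus), Crim1 at chr17:78199998-78200297 (plus) and Ankrd1 at chr19:36119795-36120094 (minus).
Ajuba: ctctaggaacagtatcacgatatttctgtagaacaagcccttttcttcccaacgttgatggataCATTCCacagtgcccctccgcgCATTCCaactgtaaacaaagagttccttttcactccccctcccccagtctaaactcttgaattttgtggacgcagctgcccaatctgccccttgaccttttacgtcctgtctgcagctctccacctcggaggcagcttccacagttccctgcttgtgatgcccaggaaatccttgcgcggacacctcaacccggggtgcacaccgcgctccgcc
Amotl2: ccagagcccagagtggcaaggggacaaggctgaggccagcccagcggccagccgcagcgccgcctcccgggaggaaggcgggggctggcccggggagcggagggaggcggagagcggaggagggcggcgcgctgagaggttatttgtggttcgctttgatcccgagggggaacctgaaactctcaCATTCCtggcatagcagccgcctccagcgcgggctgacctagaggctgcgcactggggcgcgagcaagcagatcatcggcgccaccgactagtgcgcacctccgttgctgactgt
Cyr61: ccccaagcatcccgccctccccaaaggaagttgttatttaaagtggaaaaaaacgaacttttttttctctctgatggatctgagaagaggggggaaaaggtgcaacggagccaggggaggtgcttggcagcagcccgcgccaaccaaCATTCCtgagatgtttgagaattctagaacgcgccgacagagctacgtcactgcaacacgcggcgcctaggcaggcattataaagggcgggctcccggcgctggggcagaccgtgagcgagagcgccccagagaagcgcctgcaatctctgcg
Crim1: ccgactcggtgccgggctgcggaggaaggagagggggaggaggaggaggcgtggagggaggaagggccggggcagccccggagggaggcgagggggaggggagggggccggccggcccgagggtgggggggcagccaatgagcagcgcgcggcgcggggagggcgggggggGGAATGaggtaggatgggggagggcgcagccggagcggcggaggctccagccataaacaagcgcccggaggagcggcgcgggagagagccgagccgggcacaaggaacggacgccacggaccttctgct
Ankrd1: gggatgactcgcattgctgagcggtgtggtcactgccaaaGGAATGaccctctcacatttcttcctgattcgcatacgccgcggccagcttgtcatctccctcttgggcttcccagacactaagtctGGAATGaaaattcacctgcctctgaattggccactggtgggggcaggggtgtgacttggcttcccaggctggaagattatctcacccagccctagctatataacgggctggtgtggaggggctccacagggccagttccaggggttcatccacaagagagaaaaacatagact
Ajuba and Ankrd1 hold 2 matches each and Amotl2, Cyr61 and Crim1 hold 1 each. Every printed promoter thus holds a match, so these do not stand for the list as a whole. The promoter set used has no entry for Ctgf, and the promoter of Nt5e is not printed. The letters GGAATG occur on either strand of 14.7% of all 32851 promoters in the table and of 8 of the 17 listed target genes that have a promoter there. The first share counts promoters and the second counts genes, with a match in any promoter of the gene, so they are not alike in unit. A match is a description of these windows and not a binding site, and Ankrd1, near control level, holds as many as Ajuba, whose level was above control.

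Most genes of cell division were above control. Of 24 mitosis genes 17 were higher and 1, Cenpa (named after its values were seen), was lower, against 20.2% and 18.8% of all genes tested, and the median log2 difference was 0.60. Mki67, the proliferation antigen, had 32.2, 31.1 and 30.9 normalised reads in Tet1 KO YAP Tg, 113, 112 and 110.1 in YAP Tg and 17.9, 22.7 and 12.4 in control livers. For Mki67 the log2 difference was 0.85 (SE 0.15, adjusted p = 0.00127). Kif20a, a kinesin of the dividing spindle, had 4.83, 4.41 and 3.63 in Tet1 KO YAP Tg, 18.5, 18.2 and 20.2 in YAP Tg and 1.69, 2.85 and 1.13 in control livers. Cdc20, which activates the anaphase-promoting complex, averaged 2.33 in Tet1 KO YAP Tg, 8.97 in YAP Tg and 0.853 in control livers. For these genes the Tet1 KO YAP Tg libraries lay above the controls without overlap and far below the YAP Tg libraries. Of 23 DNA replication genes 11 were higher and 1 was lower (52.2%, against 39.0% of all genes tested), with a median of 0.34. Pole, a catalytic subunit of the leading-strand polymerase, averaged 7.44 in Tet1 KO YAP Tg, 11.3 in YAP Tg and 3.29 in control livers. The helicase subunit Mcm5 averaged 6.99 in Tet1 KO YAP Tg, 15.8 in YAP Tg and 3.71 in control livers. Mcm10, a replication initiation factor, was the lower one, at 34.8 in Tet1 KO YAP Tg, 2.58 in YAP Tg and 56.9 in control livers. These lists depended on which libraries were used, since 11 mitosis genes passed without Tet1 KO YAP Tg library 2, 11 without control library 3, 24 without control library 2 and 10 with the libraries of both groups alone. In the averaged fit with limma 0 of either list passed, with 3 of 24 mitosis and 6 of 23 replication genes at an unadjusted p below 0.05.

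Regulators of cell cycle entry pointed both ways, with 3 of 13 higher and 3 lower (46.2% passed, against 39.0% of all genes tested). Cdkn1a, which encodes the cyclin-dependent kinase inhibitor p21, had 3.44, 2.54 and 3.79 in Tet1 KO YAP Tg, 14.3, 15.4 and 16.3 in YAP Tg and 9.35, 9.16 and 10.98 in control livers (log2 difference -1.47 against control), a call kept by the averaged fit (adjusted p = 0.0446). Myc, a growth-promoting transcription factor, averaged 7.71 in Tet1 KO YAP Tg, 12.4 in YAP Tg and 3.75 in control livers. Of 13 oncofetal genes, which are active in fetal liver and in liver tumours, 5 were higher and 2 lower (53.8% against 39.0%). Gpc3, a heparan sulfate proteoglycan of the fetal liver, had 10.7, 9.72 and 10.2 normalised reads in Tet1 KO YAP Tg, 588, 599 and 603 in YAP Tg and 1.87, 1.51 and 1.78 in control livers (log2 difference 2.27, SE 0.074, adjusted p = 1.54e-09), so it lay above every control library at a small part of its YAP Tg level. Spink3, a trypsin inhibitor, likewise averaged 4.39 in Tet1 KO YAP Tg, 131 in YAP Tg and 0.202 in control livers. H19, an imprinted non-coding RNA, and Igf2bp3, an RNA-binding protein of the fetus, were below control, H19 at 0.760, 0.500 and 0.533 in Tet1 KO YAP Tg against 3.27, 1.78 and 2.20 in controls. Igf2bp3 fell to 1.74, 1.27 and 1.33 in Tet1 KO YAP Tg against 4.32, 4.14 and 3.80 in controls. The main fetal plasma protein Afp averaged 2.91 in Tet1 KO YAP Tg, 21.8 in YAP Tg and 1.74 in control livers (adjusted p = 0.0104). The averaged fit kept Gpc3 and Spink3 (adjusted p = 0.00602 and 0.00441) and not H19 (0.11), Igf2bp3 (0.0782) or Afp (0.666).

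The largest rises fell into genes that YAP Tg livers also had above control and genes at or near 0 in both other groups. Serpina3c, a secreted serine protease inhibitor (chr12:104146906-104153872, minus strand), had 153, 138 and 154 normalised reads in Tet1 KO YAP Tg, 0.0720, 0.103 and 0.0729 in YAP Tg and 0.468, 0.534 and 0.297 in control livers (log2 difference 7.33, SE 0.12, adjusted p = 5.79e-12), 343-fold its control mean. Serpina5, the inhibitor of activated protein C (chr12:104101112-104106137, plus strand), had 75.5, 72.7 and 68.6 in Tet1 KO YAP Tg, 1.55, 0.928 and 0.911 in YAP Tg and 0.117, 0.0890 and 0.237 in control livers. For Serpina5 the log2 difference was 6.82 (SE 0.15, adjusted p = 1.16e-10). These genes lie in the same cluster on chromosome 12, among similar serpin genes whose reads a counter may split, and for both every Tet1 KO YAP Tg library was far above every other library. Moxd1, a copper-dependent monooxygenase-like protein of the endoplasmic reticulum, had 8.58, 10.2 and 10.3 in Tet1 KO YAP Tg, 0, 0.0344 and 0 in YAP Tg and 0.0584, 0.0445 and 0 in control livers. With 610 reads in Tet1 KO YAP Tg against 2 in controls, its ratio was 272.6, with a 95% counting interval of 75.15 to 2256. Orm3, an orosomucoid of the acute phase, had 8.72, 9.17 and 10.3 in Tet1 KO YAP Tg, 0, 0.0344 and 0 in YAP Tg and 0.292, 0.890 and 0.415 in control livers.

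Other genes with large rises had varied roles. H2-Q1, a non-classical class I histocompatibility gene whose reads may be shared with near-identical neighbours (chr17:35320557-35325099), had 123, 118 and 121 normalised reads in Tet1 KO YAP Tg, 397, 410.3 and 418 in YAP Tg and 5.61, 4.05 and 4.81 in control livers. For H2-Q1 the log2 difference was 4.52 (SE 0.088, adjusted p = 2.57e-11). Col12a1, a collagen found along fibrils, had 30.9, 29.8 and 29.005 in Tet1 KO YAP Tg, 22.3, 20.9 and 22.8 in YAP Tg and 3.39, 1.25 and 2.43 in control livers, with its Tet1 KO YAP Tg libraries above those of both other groups. Col4a3, a basement membrane collagen chain, averaged 10.8 in Tet1 KO YAP Tg, 12.1 in YAP Tg and 0.571 in control livers. Omd, a small proteoglycan of mineralised matrix, averaged 50.7 in Tet1 KO YAP Tg, 78.1 in YAP Tg and 5.96 in control livers. Nrg1, a ligand of ERBB receptors, had 6.66 to 7.54 in Tet1 KO YAP Tg, 18.7 to 19.8 in YAP Tg and 0.119 to 0.356 in control livers. Ntrk2, the receptor of brain-derived neurotrophic factor, averaged 15.2 in Tet1 KO YAP Tg, 2.94 in YAP Tg and 1.36 in control livers. Pls1, an actin-bundling protein of microvilli, averaged 33.5 in Tet1 KO YAP Tg, 91.2 in YAP Tg and 3.45 in control livers. Krt4, a keratin of stratified epithelia, had 348 reads in Tet1 KO YAP Tg against 2 in controls, a ratio of 155.5 with a counting interval of 42.73 to 1289. Each of the 12 genes with the largest rises passed in the averaged fit, with adjusted p at most 0.00807.

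**Figure D2:**
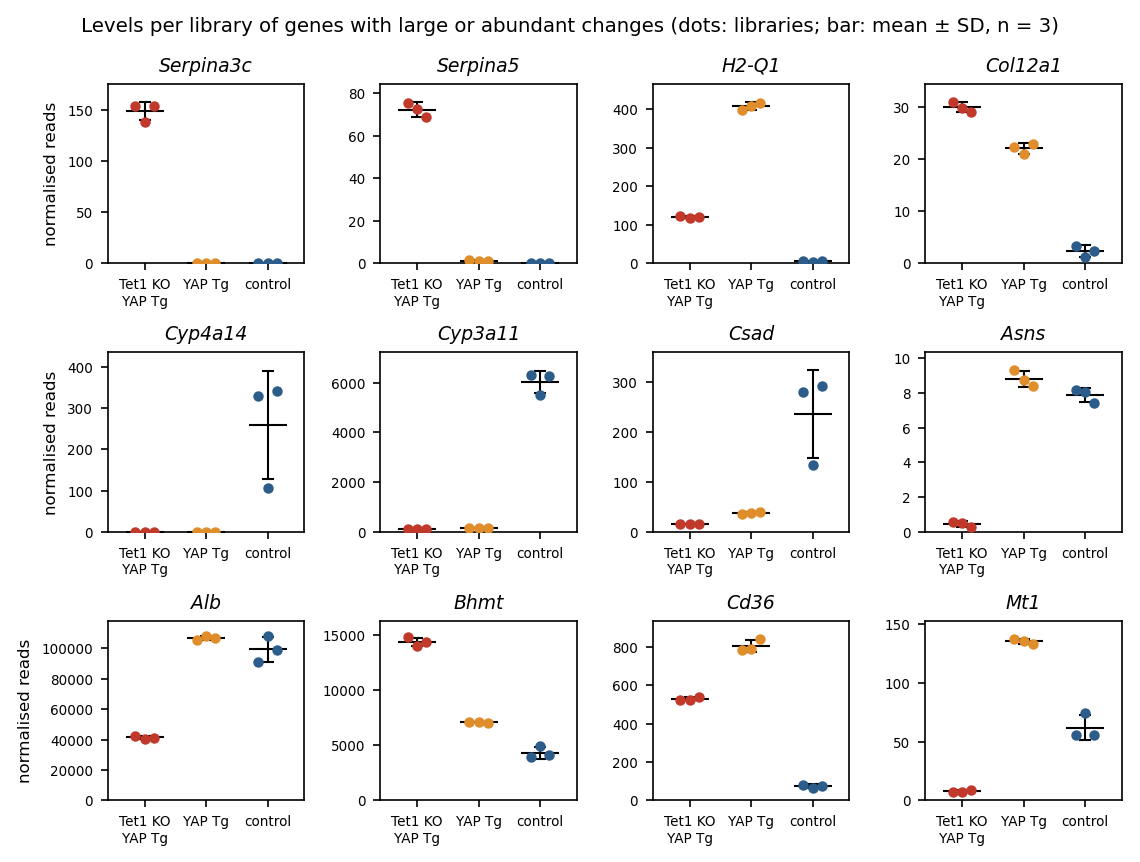
Normalised reads per library (vertical axes, each from 0) of 12 genes in Tet1 KO YAP Tg, YAP Tg and control livers, with 1 point per library and bars for the mean ± SD of 3 libraries. Serpina3c and Serpina5 are high in Tet1 KO YAP Tg alone, Cyp3a11 and Cyp4a14 are low in both transgenic groups, and Asns and Mt1 are low in Tet1 KO YAP Tg alone.

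The largest falls were led by cytochrome P450 genes that were low in YAP Tg livers as well. Cyp4a14, a fatty acid omega-hydroxylase under control of the receptor PPARα (chr4:115486199-115496141, mm10), had 0.447, 0.136 and 0.427 normalised reads in Tet1 KO YAP Tg, 0.216, 0.275 and 0.219 in YAP Tg and 329, 107 and 342 in control livers. For Cyp4a14 the log2 difference was -8.12 (SE 0.36, adjusted p = 1.61e-08). Cyp3a11, the main drug-oxidising P450 of mouse liver (chr5:145854606-145879854), had 94.7, 98.5 and 99.7 in Tet1 KO YAP Tg, 159.8, 152 and 167 in YAP Tg and 6321, 5504 and 6254 in control livers (log2 difference -5.94, SE 0.061, adjusted p = 7.61e-14), 61.7-fold lower in Tet1 KO YAP Tg than in control livers. For both, the Tet1 KO YAP Tg and YAP Tg libraries were far under every control library. Enho, which encodes the peptide adropin, had 0.760, 0.908 and 1.01 in Tet1 KO YAP Tg, 0.972, 0.859 and 0.911 in YAP Tg and 24.2, 44.7 and 24.8 in control livers. The aspartic protease Ctse had 0.179, 0.0908 and 0.0533 in Tet1 KO YAP Tg, 1.91, 2.20 and 2.37 in YAP Tg and 6.84, 17.97 and 8.55 in control livers. The vesicular glutamate transporter Slc17a8 had 6.89, 8.72 and 8.53 in Tet1 KO YAP Tg, 11.8, 10.8 and 12.3 in YAP Tg and 102, 47.3 and 99.2 in control livers. Csad, which makes hypotaurine on the way to taurine, averaged 15.8 ± 0.758 in Tet1 KO YAP Tg, 37.7 ± 2.49 in YAP Tg and 236 ± 88.4 in control livers (SD, n = 3 each), with control library 2 at less than the other controls. All of these falls passed in the averaged fit (adjusted p at most 0.0168).

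A further group of large falls moved with ribosomal RNA reads in the controls. Rn45s, the ribosomal RNA precursor, took 0.104% to 0.106% of the reads of Tet1 KO YAP Tg libraries and 7.823%, 0.1483% and 6.436% of control libraries 1, 2 and 3. Lars2, a mitochondrial leucyl-tRNA synthetase gene, had 11.8, 14.8 and 15.2 normalised reads in Tet1 KO YAP Tg, 13.9, 12.2 and 8.93 in YAP Tg and 1247, 21.1 and 844 in control livers. Mir6236, a microRNA locus, had 0.492, 0.636 and 0.746 in Tet1 KO YAP Tg, 0.828, 1.31 and 0.583 in YAP Tg and 70.8, 1.38 and 62.3 in control livers. All 3 genes were high in control libraries 1 and 3 and near the transgenic levels in control library 2, and none passed in the averaged fit (adjusted p = 0.592, 0.593 and 0.566). Leaving out control library 2 took the log2 differences to -6.28 for Rn45s, -6.16 for Lars2 and -5.90 for Mir6236, and leaving out control library 1 took them to -3.39, -3.23 and -3.28. Without control library 3 they were -3.52, -3.51 and -3.37.

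A set of genes lay below both other groups. Asns, the asparagine synthetase, had 0.581, 0.500 and 0.267 normalised reads in Tet1 KO YAP Tg, 9.29, 8.76 and 8.38 in YAP Tg and 8.18, 8.05 and 7.42 in control livers (log2 difference -3.16, SE 0.13, adjusted p = 1.32e-08 against control; log2 difference -3.31 against YAP Tg). Tcf24, a basic helix-loop-helix factor, had 0.358, 0.318 and 0.320 in Tet1 KO YAP Tg, 11.4, 12.7 and 14.4 in YAP Tg and 11.2, 7.92 and 11.6 in control livers. Nipal1, a magnesium transporter-like protein, had 2.41, 2.63 and 1.65 in Tet1 KO YAP Tg, 64.3, 63.3 and 71.3 in YAP Tg and 27.1, 37.7 and 27.1 in control livers. Every Tet1 KO YAP Tg library of these genes was under every library of the other groups. Mt1, a metallothionein that binds zinc, had 7.38, 7.40 and 9.06 in Tet1 KO YAP Tg, 137, 136 and 133 in YAP Tg and 55.5, 74.2 and 55.9 in control livers. Vnn1, a pantetheinase, had 8.003, 8.49 and 8.53 in Tet1 KO YAP Tg, 144, 146 and 152 in YAP Tg and 53.9, 48.1 and 56.3 in control livers. The thyroxine-binding globulin gene Serpina7 averaged 13.9 in Tet1 KO YAP Tg, 178 in YAP Tg and 83.2 in control livers. The peroxisomal transporter gene Abcd2 averaged 9.63 in Tet1 KO YAP Tg, 81.7 in YAP Tg and 50.5 in control livers. Cyp4a31 averaged 0.661 in Tet1 KO YAP Tg, 9.94 in YAP Tg and 8.46 in control livers. In YAP Tg livers Mt1, Vnn1, Serpina7 and Abcd2 were above control, so the transgenic groups moved apart in opposite directions.

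On the other side, Dct, dopachrome tautomerase of melanin synthesis, was listed at 12.8, 13.4 and 12.6 in Tet1 KO YAP Tg, at 0 in all YAP Tg libraries and at 1.05, 1.51 and 1.31 in control livers. Acot11, an acyl-CoA thioesterase, had 21.2, 18.5 and 19.8 normalised reads in Tet1 KO YAP Tg, 1.19, 0.893 and 0.948 in YAP Tg and 2.63, 2.62 and 3.68 in control livers. With Serpina3c, Serpina5, Moxd1, Orm3, Ntrk2 and Thrsp, these were the 8 genes with the largest rises over both groups at once. In all, 1205 genes (8.78% of those tested) were higher in Tet1 KO YAP Tg than in both control and YAP Tg livers, and 823 (5.99%) were lower than in both. Each of the 16 genes named as highest above or lowest below both groups passed against control in the averaged fit (adjusted p at most 0.0189).

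Among genes with the most reads, several plasma protein and carrier genes of hepatocytes differed. Albumin (Alb) was lower in Tet1 KO YAP Tg, with 42436, 40429.9 and 41152 normalised reads in Tet1 KO YAP Tg, 105383, 107807 and 106927 in YAP Tg and 91030.2, 107946 and 99011 in control livers (log2 difference -1.26, SE 0.092, adjusted p = 1.23e-06 against control). The protein that carries thyroxine and retinol-binding protein, Ttr, averaged 1869 in Tet1 KO YAP Tg, 865 in YAP Tg and 4385 in control livers. The fatty acid carrier Fabp1 averaged 3209 in Tet1 KO YAP Tg, 276 in YAP Tg and 7608 in control livers. The carbonic anhydrase Car3 averaged 1047 in Tet1 KO YAP Tg, 48.1 in YAP Tg and 3754 in control livers. The carboxylesterase Ces1c was lower too, at 1447 in Tet1 KO YAP Tg, 1208 in YAP Tg and 3128 in control livers. So was the α1-antitrypsin gene Serpina1e, at 2052 in Tet1 KO YAP Tg, 332 in YAP Tg and 10880.5 in control livers. In contrast Bhmt, which remethylates homocysteine with betaine, had 14789, 14034 and 14316 in Tet1 KO YAP Tg, 7119, 7112 and 7053 in YAP Tg and 3927, 4957 and 4073 in control livers. For Bhmt the log2 difference was 1.74 (SE 0.082, adjusted p = 3.11e-08). Serpina3k, another secreted serpin, averaged 24811 in Tet1 KO YAP Tg, 779.5 in YAP Tg and 11432 in control livers. The glucuronosyltransferase Ugt2b1 averaged 2355 in Tet1 KO YAP Tg, 122 in YAP Tg and 1005 in control livers. The selenium-binding protein Selenbp2 averaged 1592 in Tet1 KO YAP Tg, 561 in YAP Tg and 734 in control livers. For each of these genes the Tet1 KO YAP Tg and control libraries did not overlap. The averaged fit kept Serpina1e (adjusted p = 0.0128) and Car3 (0.0151). The others did not pass there. Their log2 differences, from means of the same libraries, lay close to those of the fit of 9 libraries by construction. Alb was at -1.29 and Bhmt at 1.69, and the furthest was Selenbp2, at 1.03 against 1.20. Of 23 secreted proteins of hepatocytes, 4 were higher and 11 lower (65.2%, against 39.0% of all genes tested), with a median of -0.18. The complement component C9 was among the higher ones, at 2573 in Tet1 KO YAP Tg, 1291 in YAP Tg and 1300.1 in control livers. The apolipoprotein Apoa1 was among the lower ones, at 4999.8 in Tet1 KO YAP Tg, 7518 in YAP Tg and 7764 in control livers.

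More drug-metabolising P450 genes were lower than higher. Of 26 tested, 14 were lower and 8 higher (84.6% passed, against 39.0% of all genes tested), with a median log2 difference of -0.55. Beside Cyp3a11 and Cyp4a14, Cyp4a10 had 33.9, 39.5 and 36.5 normalised reads in Tet1 KO YAP Tg, 11.4, 12.4 and 12.5 in YAP Tg and 299.8, 205 and 322 in control livers. The steroid hydroxylase Cyp2a4 had 0.179, 0.0454 and 0.160 in Tet1 KO YAP Tg, 0.792, 0.653 and 0.547 in YAP Tg and 18.001, 10.8 and 16.6 in control livers. Cyp2b9, a phenobarbital-inducible P450, had 1 read in Tet1 KO YAP Tg against 140 in controls, lower by a factor of 156.6 with a counting interval of 27.65 to 6230. Cyp2e1, which oxidises ethanol near the central vein, was at 4557, 4641 and 4787 in Tet1 KO YAP Tg, 84.3, 79.2 and 86.4 in YAP Tg and 6899, 6685 and 7092 in control livers (log2 difference -0.56, SE 0.051, adjusted p = 7.27e-06), closer to control than to YAP Tg. P450 genes of one family are similar in sequence and reads may be shared among them. The family of Cyp4a genes, picked after its values were seen, had 4 members lower and 2 higher of 6 tested. The averaged fit left 6 P450 genes, all lower, namely Cyp4a14, Cyp3a11, Cyp2a4, Cyp4a10, Cyp2b9 and Cyp2c55, the last named after its values were seen.

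Genes of both lobular zones were more often lower than higher. Of 18 pericentral genes under Wnt control, 11 were lower and 3 higher (77.8%, against 39.0% of all genes tested), with a median of -0.52. Glul, the glutamine synthetase of the hepatocytes next to the central vein, had 547, 536 and 547 normalised reads in Tet1 KO YAP Tg, 73.3, 72.3 and 73.2 in YAP Tg and 1164, 1196 and 1216 in control livers. For Glul the log2 difference was -1.13 (SE 0.042, adjusted p = 4.4e-09). The glutamate transporter Slc1a2 of the same cells had 95.1, 96.7 and 104 in Tet1 KO YAP Tg, 2.70, 3.09 and 2.66 in YAP Tg and 228, 224 and 234 in control livers. Lgr5, a receptor for R-spondins, averaged 2.98 in Tet1 KO YAP Tg, 0.216 in YAP Tg and 7.35 in control livers. Each lay between the YAP Tg and the control libraries. Of 16 periportal genes, 7 were lower and 2 higher (56.2%, against 39.0% of all genes tested), with a median of -0.15. Etnppl, a phospholyase, averaged 100.0 in Tet1 KO YAP Tg, 60.4 in YAP Tg and 223 in control livers. Sds, serine dehydratase, averaged 40.4 in Tet1 KO YAP Tg, 8.38 in YAP Tg and 61.7 in control livers. Cps1, the first enzyme of the urea cycle, was slightly higher, at 6485 in Tet1 KO YAP Tg, 3572 in YAP Tg and 5635 in control livers (log2 difference 0.20). Of the pericentral list, Glul (adjusted p = 0.0488) and Slc1a2 (0.032) passed in the averaged fit.

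Genes that differ between the sexes in mouse liver moved in both directions on the male side and mostly down on the female side. Of 24 male-biased genes 11 were higher and 9 lower (83.3%, against 39.0% of all genes tested), with a median of -0.063. Of 16 female-biased genes 1 was higher and 10 were lower (68.8%), with a median of -0.90. The sex of the animals is not given in the sources used here. Xist reads differed within each group, as given above, and every library held reads of Y chromosome genes, given at the end. The part of either in these values was not tested. Elovl3, a male-biased fatty acid elongase, had 82.7, 86.03 and 92.2 normalised reads in Tet1 KO YAP Tg, 0, 0 and 0.0365 in YAP Tg and 543, 619 and 552 in control livers. Mup7, a major urinary protein, had 336, 365 and 344 in Tet1 KO YAP Tg, 0.0720, 0.0687 and 0 in YAP Tg and 1396, 1864 and 1418 in control livers. Mup20, another, averaged 12597 in Tet1 KO YAP Tg, 1636 in YAP Tg and 9086 in control livers. Elovl3 and Mup7 thus lay between YAP Tg and control, and Mup20 above control. The Mup copies are so alike that reads of each are uncertain. Of 18 tested, a family picked after its values were seen, 10 were higher and 5 lower. Among female-biased genes Prlr, the prolactin receptor, averaged 108 in Tet1 KO YAP Tg, 75.4 in YAP Tg and 248 in control livers.

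Growth hormone signalling, which sets much of this bias in mouse liver, had 3 of 11 genes higher and 3 lower. The share that passed was 54.5%, against 39.0% of all genes tested. Cish, a feedback inhibitor of its receptor, had 8.54, 9.04 and 9.65 in Tet1 KO YAP Tg, 9.76, 8.76 and 8.75 in YAP Tg and 2.98, 2.45 and 2.14 in control livers. Socs3, another, averaged 9.27 in Tet1 KO YAP Tg, 35.2 in YAP Tg and 4.07 in control livers. Igf1, the hormone's main product, averaged 710.0 in Tet1 KO YAP Tg, 612 in YAP Tg and 1430.0 in control livers. In the averaged fit Cish (adjusted p = 0.0298), Prlr (0.031), Elovl3 (0.00225) and Mup7 (0.006) kept the call, and Igf1 (0.0987), Socs3 (0.115) and Mup20 (0.656) lost it.

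Most genes of fat synthesis were higher in Tet1 KO YAP Tg than in control livers. Of 20 genes of fatty acid and triglyceride synthesis, 14 were higher and 4 lower (90%, against 39.0% of all genes tested). Their median was 0.42. Thrsp, a regulator of lipogenesis, had 699.6, 714 and 688 normalised reads in Tet1 KO YAP Tg, 3.02, 2.75 and 2.59 in YAP Tg and 147, 122 and 149 in control livers. For Thrsp the log2 difference was 2.33 (SE 0.079, adjusted p = 2.23e-09). Fasn, the fatty acid synthase, had 604, 587 and 635 in Tet1 KO YAP Tg, 73.002, 70.6 and 67.95 in YAP Tg and 295, 255 and 324 in control livers. For Fasn the log2 difference was 1.07 (SE 0.076, adjusted p = 1.08e-06). Pnpla3, a lipase-like protein of lipid droplets, averaged 7.91 in Tet1 KO YAP Tg, 2.67 in YAP Tg and 1.91 in control livers. These genes were above every control library, and Thrsp and Fasn were below control in YAP Tg livers. Scd1, which puts the double bond into stearate, averaged 13692 in Tet1 KO YAP Tg, 1146 in YAP Tg and 9371 in control livers, a call lost without any one Tet1 KO YAP Tg library (adjusted p 0.0716 to 0.0829). Lpin1, a phosphatidate phosphatase, was lower at 236, 237 and 255 in Tet1 KO YAP Tg, 26.1, 27.5 and 29.8 in YAP Tg and 601, 298 and 643 in control livers, with control library 2 closest to the Tet1 KO YAP Tg level. The averaged fit kept Thrsp (adjusted p = 0.00316) and Pnpla3 (0.0378) and not Fasn (0.0578) or Lpin1 (0.526).

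Genes that burn fat were lower where they passed. The median of 18 genes of fatty acid oxidation and ketogenesis was -0.23. Of these 18 genes 11 were lower (61.1%, against 18.8% of all genes tested) and 7 did not pass. Against YAP Tg livers 14 of them were higher (33.4% of all genes tested) and 2 lower (34.0%) in Tet1 KO YAP Tg. Acadl, a long-chain acyl-CoA dehydrogenase, averaged 151 in Tet1 KO YAP Tg, 116 in YAP Tg and 245 in control livers. Bdh1, which reduces acetoacetate, averaged 116 in Tet1 KO YAP Tg, 43.6 in YAP Tg and 183 in control livers. Fgf21, a hormone of fasting, averaged 0.457 in Tet1 KO YAP Tg, 5.72 in YAP Tg and 2.06 in control livers. Of 13 genes of lipid droplets and lipid uptake 2 were higher and 5 lower (53.8% passed, against 39.0% of all genes tested). Cd36, the fatty acid translocase, was higher than control, at 525, 523 and 537 in Tet1 KO YAP Tg, 785, 789 and 842 in YAP Tg and 81.5, 63.7 and 75.02 in control livers (log2 difference 2.85, SE 0.076, adjusted p = 3.96e-10 against control). Plin4, a coat protein of lipid droplets, fell to 5.72, 5.41 and 5.54 in Tet1 KO YAP Tg against 24.3, 14.9 and 25.9 in controls. The receptor gene Vldlr averaged 1.37 in Tet1 KO YAP Tg, 36.6 in YAP Tg and 3.47 in control livers. Cd36 was the named member of these lists that the averaged fit kept (adjusted p = 0.00225).

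Glycolysis genes that passed were mostly higher. Of 19 glycolysis genes, 11 were higher and 2 lower (68.4%, against 39.0% of all genes tested), with a median of 0.30. Pklr, the liver pyruvate kinase, had 374, 372 and 372 normalised reads in Tet1 KO YAP Tg, 39.1, 39.8 and 39.99 in YAP Tg and 174, 128 and 186 in control livers. For Pklr the log2 difference was 1.21 (SE 0.11, adjusted p = 5.5e-06). Its Tet1 KO YAP Tg libraries were above all libraries of both other groups. Fewer glycolysis genes passed without Tet1 KO YAP Tg library 1 (8) or 2 (7). Of 14 genes of gluconeogenesis and glycogen, 5 were higher and 5 lower (71.4%, against 39.0% of all genes tested). Igfbp1, an insulin-repressed binding protein of insulin-like growth factors, had 61.9, 67.4 and 68.7 in Tet1 KO YAP Tg, 295, 292 and 301 in YAP Tg and 274, 376 and 291 in control livers. For Igfbp1 the log2 difference was -2.23 (SE 0.097, adjusted p = 1.59e-08). G6pc, which releases glucose from its phosphate, had 455, 444 and 462 in Tet1 KO YAP Tg, 144, 153 and 151 in YAP Tg and 1106, 1347 and 1156 in control livers. For G6pc the log2 difference was -1.40 (SE 0.067, adjusted p = 3.55e-08). Foxo1, a transcription factor that insulin restrains, averaged 23.96 in Tet1 KO YAP Tg, 12.8 in YAP Tg and 46.6 in control livers. Ugp2, which makes UDP-glucose for glycogen, averaged 985 in Tet1 KO YAP Tg, 656 in YAP Tg and 542 in control livers. Pck1, the rate-limiting enzyme of gluconeogenesis, did not pass, at 2249 in Tet1 KO YAP Tg, 703 in YAP Tg and 2509.8 in control livers (adjusted p = 0.129), though it did as lower without control library 2 (adjusted p = 2.29e-06). The averaged fit kept Igfbp1 (adjusted p = 0.0054) and G6pc (0.0282) and not Pklr (0.0578).

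**Figure D3:**
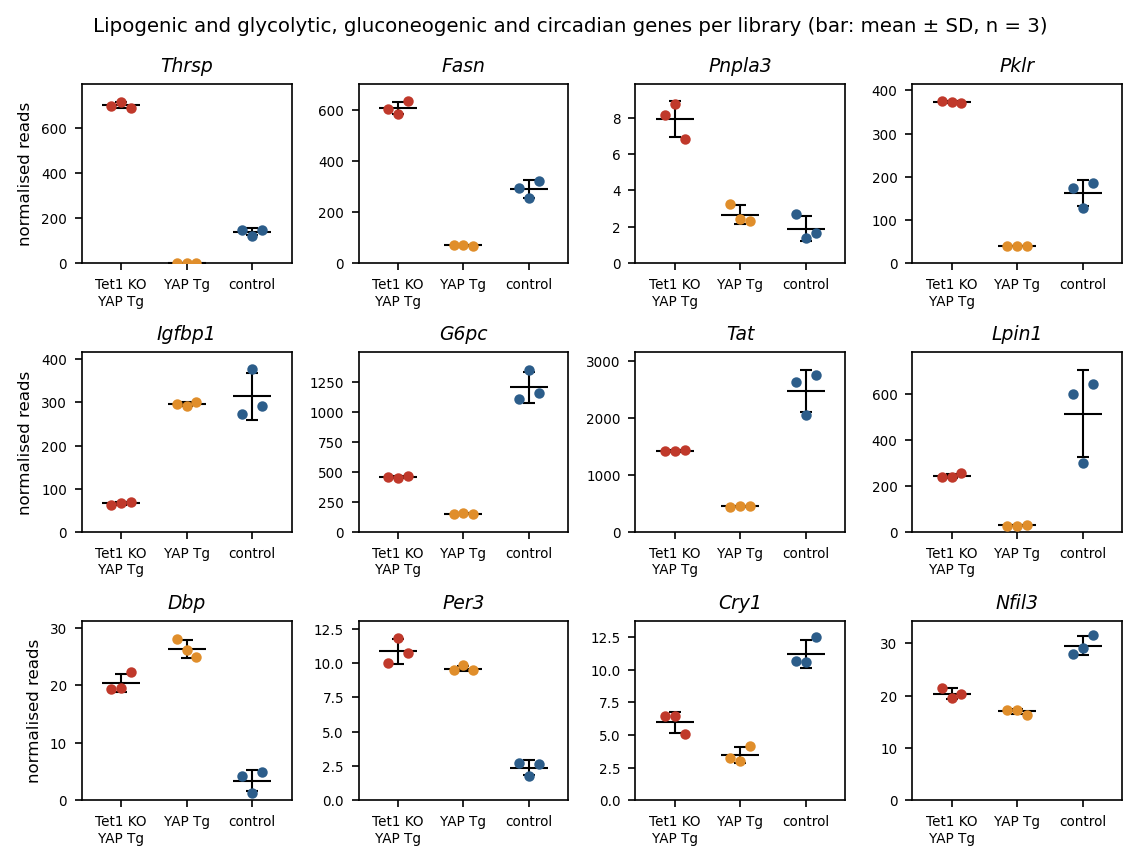
Normalised reads per library (vertical axes, each from 0) of lipogenic and glycolytic genes (top row), gluconeogenic genes with Tat and Lpin1 (middle row) and circadian genes (bottom row) in Tet1 KO YAP Tg, YAP Tg and control livers, with 1 point per library and bars for the mean ± SD of 3 libraries. Thrsp, Fasn, Pnpla3 and Pklr are highest in Tet1 KO YAP Tg, Igfbp1 is lowest there, and Dbp and Per3 are high in both transgenic groups.

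Cholesterol and lipoprotein genes were mixed. Of 22 cholesterol synthesis genes, 6 were higher and 12 lower (81.8%, against 39.0% of all genes tested), none by as much as 2-fold. Their median was -0.19. Hmgcs1, a synthase early in the pathway, had 814, 858 and 832 normalised reads in Tet1 KO YAP Tg, 232, 222 and 238 in YAP Tg and 1469, 1456 and 1436 in control livers. Idi1, an isomerase further along, averaged 353 in Tet1 KO YAP Tg, 109 in YAP Tg and 620.5 in control livers. Both were between the YAP Tg and control libraries, and neither passed in the averaged fit (adjusted p = 0.163 and 0.118). Of 14 lipoprotein genes 6 were higher and 3 lower (64.3%, against 39.0% of all genes tested). Apoa4 averaged 296 in Tet1 KO YAP Tg, 8.63 in YAP Tg and 138 in control livers (adjusted p = 0.0533 in the averaged fit), and Apoc3, an inhibitor of lipoprotein lipase, 966 in Tet1 KO YAP Tg, 328 in YAP Tg and 546 in control livers. Bile acid genes had 6 higher and 6 lower of 18 (66.7%, against 39.0% of all genes tested). The rate-limiting Cyp7a1 was at 135 in Tet1 KO YAP Tg, 94.5 in YAP Tg and 253 in control livers. The uptake carrier Slco1a1 averaged 769 in Tet1 KO YAP Tg, 8.70 in YAP Tg and 1405 in control livers. Among 20 genes of the urea cycle and of amino acid catabolism, 6 were higher and 6 lower (60%, against 39.0% of all genes tested). Prodh, proline dehydrogenase, had 258, 255 and 241 in Tet1 KO YAP Tg, 18.9, 18.04 and 16.6 in YAP Tg and 92.4, 96.8 and 104 in control livers, kept by the averaged fit (adjusted p = 0.018), and Tat, tyrosine aminotransferase, averaged 1426 in Tet1 KO YAP Tg, 448 in YAP Tg and 2483 in control livers.

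Most clock genes that passed were higher. Of 18 clock genes, 7 were higher, 2 lower and 9 did not pass, with a median of 0.26. The share that passed was 50%, against 39.0% of all genes tested. Dbp, an output factor that binds D-box elements, had 19.4, 19.5 and 22.3 normalised reads in Tet1 KO YAP Tg, 28.1, 26.1 and 25.01 in YAP Tg and 4.15, 1.29 and 4.87 in control livers. For Dbp the log2 difference was 2.56 (SE 0.31, adjusted p = 6.57e-05). Per3, a period gene, had 9.97, 11.8 and 10.7 in Tet1 KO YAP Tg, 9.47, 9.83 and 9.48 in YAP Tg and 2.75, 1.73 and 2.61 in control livers. Per2, a period gene whose protein represses the clock's activators, had 14.1, 15.4 and 17.2 in Tet1 KO YAP Tg, 10.3, 9.11 and 9.51 in YAP Tg and 6.49, 5.12 and 6.23 in control livers. Bhlhe41, another repressor, averaged 1.29 in Tet1 KO YAP Tg, 0.345 in YAP Tg and 0.241 in control livers. For these genes every Tet1 KO YAP Tg library was above every control library, and Dbp and Per3 were high in YAP Tg livers too. Clock, an activator, did not pass, at 183 in Tet1 KO YAP Tg, 104 in YAP Tg and 199 in control livers, but did as lower without control library 2 (adjusted p = 0.00029). Cry1 and Nfil3, repressors that were named after their values were seen, were the 2 lower genes. Cry1 averaged 5.98 in Tet1 KO YAP Tg, 3.46 in YAP Tg and 11.2 in control livers. Nfil3 averaged 20.4 in Tet1 KO YAP Tg, 16.98 in YAP Tg and 29.6 in control livers. Per3 kept its call in the averaged fit (adjusted p = 0.0245), and Dbp (0.0606) and Per2 (0.0581) did not. The hour of tissue collection is not given in the sources used here, so collection time and group cannot be told apart for these genes.

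The promoter of Per3, a clock gene that passed in both fits, is printed for its match to the D-box that Dbp and related factors bind. It lies at chr4:151044616-151044915 on the minus strand of GRCm38.p6 and is given 5′ to 3′ on the strand of the gene, from RefSeq, with matches to TTATGNAA on either strand in capitals.
Per3: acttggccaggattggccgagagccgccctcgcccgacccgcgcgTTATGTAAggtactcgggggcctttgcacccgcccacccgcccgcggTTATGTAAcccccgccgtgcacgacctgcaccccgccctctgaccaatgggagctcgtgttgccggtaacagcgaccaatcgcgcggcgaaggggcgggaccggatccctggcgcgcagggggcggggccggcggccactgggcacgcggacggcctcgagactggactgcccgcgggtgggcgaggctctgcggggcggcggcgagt
Its 2 matches have the same letters, and TTATGNAA occurs in 3.38% of all promoters in the table and in 2 of the 15 listed clock genes that have a promoter there. Here too the share counts promoters, while a listed gene counts with a match in any of its promoters.

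Stress and defence genes moved without a common direction. Of 19 acute phase genes 9 were higher and 5 lower (73.7%, against 39.0% of all genes tested), with a median of 0.38. Beside Orm3 and Mt1, the iron-binding lipocalin Lcn2 averaged 7.39 in Tet1 KO YAP Tg, 33.7 in YAP Tg and 2.56 in control livers. The metallothionein Mt2 averaged 3.05 in Tet1 KO YAP Tg, 75.7 in YAP Tg and 11.6 in control livers. Haptoglobin (Hp), with the most reads of the list, averaged 1477 in Tet1 KO YAP Tg, 2276 in YAP Tg and 1385 in control livers and did not pass, though without control library 2 it did (adjusted p = 0.00135). Of 15 genes of the NRF2 factor and glutathione, 9 were lower and 3 higher (80%, against 39.0% of all genes tested). Their median was -0.48. Gclc, the catalytic subunit that starts glutathione synthesis, had 219, 217 and 217 normalised reads in Tet1 KO YAP Tg, 146, 158 and 156 in YAP Tg and 683, 599 and 699.8 in control livers (log2 difference -1.60, SE 0.061, adjusted p = 5.78e-09), kept in the averaged fit (adjusted p = 0.0152). The glutathione transferase Gstm3 averaged 18.1 in Tet1 KO YAP Tg, 23.9 in YAP Tg and 48.5 in control livers. Ugdh, which makes UDP-glucuronate, averaged 90.5 in Tet1 KO YAP Tg, 53.4 in YAP Tg and 172 in control livers. Of 16 genes of the unfolded protein response and amino acid stress, 7 were higher and 4 lower (68.8%, against 39.0% of all genes tested). Asns was the deepest fall. Creld2, a protein of the endoplasmic reticulum, averaged 50.7 in Tet1 KO YAP Tg, 9.20 in YAP Tg and 20.8 in control livers. Sdf2l1, another, averaged 39.2 in Tet1 KO YAP Tg, 7.88 in YAP Tg and 14.5 in control livers, and both were above both other groups.

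Of 20 p53 targets, 6 were higher and 6 lower (60%, against 39.0% of all genes tested). Trp53inp1, a p53-induced nuclear protein, had 163, 161 and 166 normalised reads in Tet1 KO YAP Tg, 225, 219.7 and 242 in YAP Tg and 526, 569 and 538 in control livers, kept in the averaged fit (adjusted p = 0.00881). Of 13 immediate early genes 2 were higher and 3 lower (38.5% against 39.0% of all genes tested), with Egr1 at 2.97 in Tet1 KO YAP Tg, 15.99 in YAP Tg and 8.37 in control livers. Dusp1, a phosphatase of MAP kinases, averaged 61.3 in Tet1 KO YAP Tg, 117 in YAP Tg and 26.8 in control livers. Of 15 iron and heme genes 7 were higher and 2 lower (60%, against 39.0% of all genes tested). Hamp2, a paralogue of hepcidin, had 162, 155 and 165 in Tet1 KO YAP Tg, 117, 127 and 116 in YAP Tg and 27.3, 12.5 and 27.1 in control livers, above every control library and kept in the averaged fit (adjusted p = 0.0151), although its reads may be shared with its near-identical neighbour. Of 19 hepatocyte transcription factors, 7 were higher and 7 lower (73.7%, against 39.0% of all genes tested). The xenobiotic receptor Nr1i3 had 14.9, 17.1 and 16.6 in Tet1 KO YAP Tg, 1.62, 1.79 and 1.39 in YAP Tg and 50.8, 67.4 and 58.05 in control livers, kept in the averaged fit (adjusted p = 0.0138), and Foxa2, a pioneer factor, averaged 31.9 in Tet1 KO YAP Tg, 18.1 in YAP Tg and 12.7 in control livers. Hnf4a, the central regulator of hepatocyte identity, averaged 542 in Tet1 KO YAP Tg, 379 in YAP Tg and 569.8 in control livers and did not pass (adjusted p = 0.673). Without control library 2, which carries most of the spread between controls, Hnf4a passed as lower (adjusted p = 8.6e-05).

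Genes of DNA methylation moved in both directions, and those of the Hippo pathway passed at a share near that of all genes tested. Of 17 DNA methylation genes, 4 were higher and 7 lower (64.7%, against 39.0% of all genes tested). Gadd45a, linked to DNA repair and demethylation, averaged 3.26 in Tet1 KO YAP Tg, 17.9 in YAP Tg and 0.919 in control livers. Uhrf1, which guides maintenance methylation, averaged 3.59 in Tet1 KO YAP Tg, 5.56 in YAP Tg and 1.51 in control livers. Mbd1, which binds methylated CpG, averaged 36.3 in Tet1 KO YAP Tg, 17.4 in YAP Tg and 80.6 in control livers, kept in the averaged fit (adjusted p = 0.0438). Of 21 Hippo components 5 were higher and 3 lower (38.1% against 39.0% of all genes tested), with the scaffold Wwc1 at 50.5 in Tet1 KO YAP Tg, 110.2 in YAP Tg and 24.7 in control livers. Of 15 imprinted growth genes 1 was higher and 3 were lower (26.7%), and 7 passed without control library 2. Peg3, a zinc finger gene expressed from the paternal allele, averaged 5.80 in Tet1 KO YAP Tg, 102 in YAP Tg and 12.5 in control livers. Of 10 heat shock genes 1 was higher and 2 were lower, a share also below that of all genes tested, and 6 passed without control library 2. Of 11 Notch pathway genes 4 were higher (36.4%, against 20.2% of all genes tested) and 0 lower. Without Tet1 KO YAP Tg library 3, 2 passed. Hes1, a Notch-induced repressor, averaged 8.61 in Tet1 KO YAP Tg, 37.8 in YAP Tg and 5.16 in control livers. Germline genes were too low for testing in all 8 listed members that the table holds. Genes around Tet1 passed at shares near the 39.0% of all genes tested, 13 of 31 (41.9%) within 2 Mb, 38 of 84 (45.2%) within 10 Mb and 111 of 274 (40.5%) within 20 Mb. By at least 2-fold, 3.23%, 3.57% and 2.55% of them passed, against 3.77% of all genes tested.

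**Figure D4:**
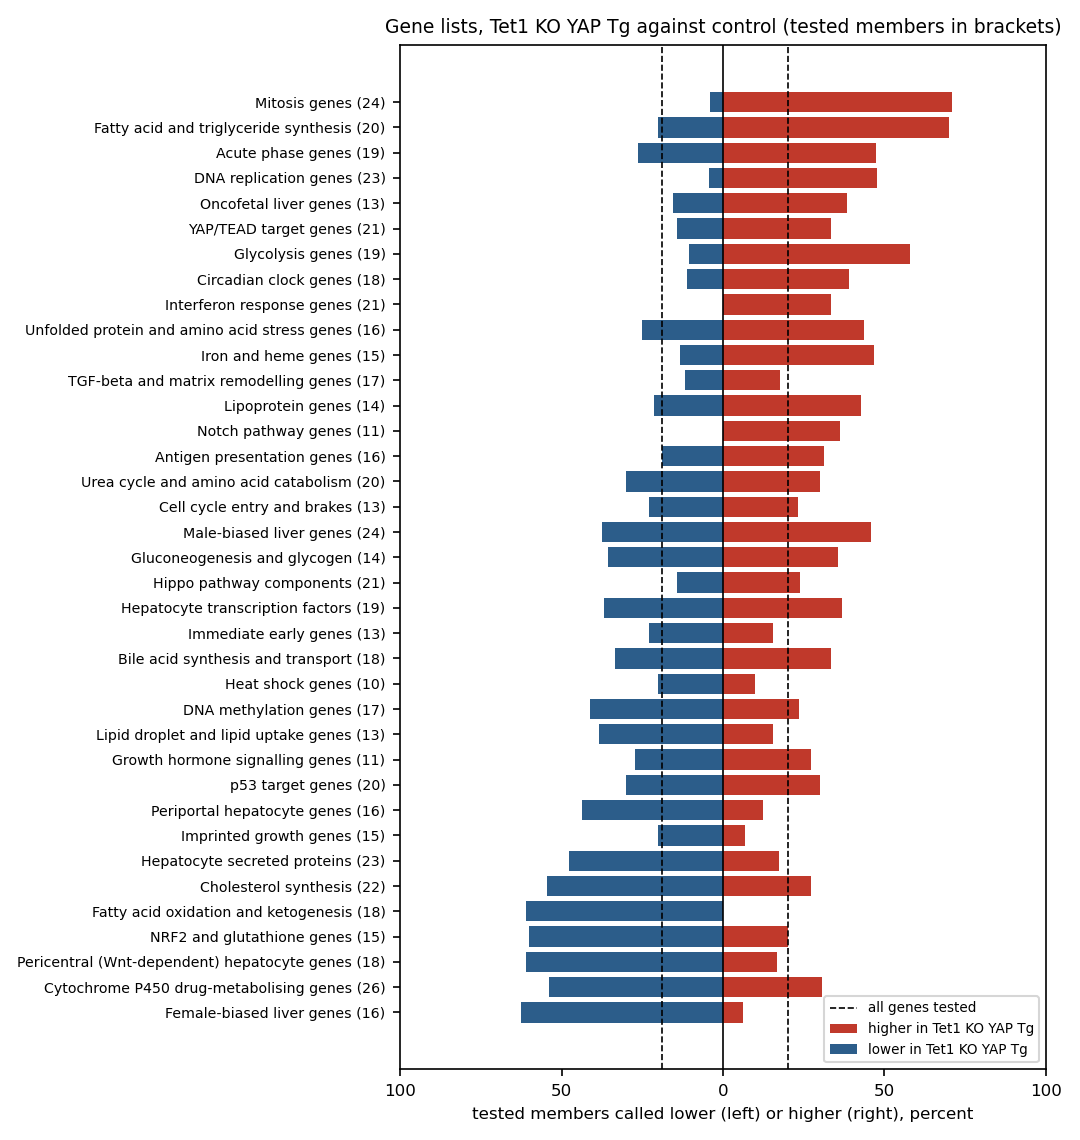
Share of the tested members of each pathway list that passed as lower (blue, to the left) or higher (red, to the right) in Tet1 KO YAP Tg against control livers, in percent, with the number of tested members in brackets and dashed lines at the 18.8% and 20.2% of all genes tested. Mitosis and fatty acid synthesis genes reach furthest to the right, and female-biased, pericentral and fatty acid oxidation genes reach furthest to the left.

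Immune cell marker sums were highest in YAP Tg livers. Tet1 KO YAP Tg sums lay above every control library for macrophages and neutrophils and overlapped the controls for lymphocytes. The summed level of 18 Kupffer cell and macrophage markers was 900.8 to 931.2 in Tet1 KO YAP Tg, 3355 to 3426 in YAP Tg and 615.4 to 811.5 in control livers. Of 17 tested, 6 were higher (35.3%, against 20.2% of all genes tested) and 0 lower (against 18.8%). In either direction 39.0% of all genes tested passed. Mpeg1, a pore-forming protein of macrophages, had 218, 216 and 217 normalised reads in Tet1 KO YAP Tg, 346, 346 and 344 in YAP Tg and 74.9, 80.4 and 78.05 in control livers (log2 difference 1.47, SE 0.044, adjusted p = 8.22e-10) and was the member kept in the averaged fit (adjusted p = 0.0141). The number of these markers that passed was 3 without Tet1 KO YAP Tg library 1 or without control library 1, and 13 without control library 2. The 13 neutrophil markers summed to 10.86 to 11.36 in Tet1 KO YAP Tg, 70.36 to 74.59 in YAP Tg and 6.469 to 7.117 in control livers, with Lcn2 the 1 of 13 that passed. Lcn2, also an acute phase gene with levels given above, rose over control by at least as much as the whole sum. The number of neutrophil markers that passed was 2 without Tet1 KO YAP Tg library 3 or without control library 2. The 14 lymphocyte markers summed to 36.34 to 40.24 in Tet1 KO YAP Tg, 119 to 121.8 in YAP Tg and 33.2 to 39.28 in control livers, so the Tet1 KO YAP Tg and control sums overlapped.

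Cholangiocyte and progenitor markers, 16 in number, summed to 739.4 to 776.8 in Tet1 KO YAP Tg, 2801 to 2901 in YAP Tg and 367.2 to 413.4 in control livers. Of 12 tested, 3 were higher and 1 lower (33.3%), with osteopontin (Spp1) at 321, 317 and 304 in Tet1 KO YAP Tg, 1655, 1679 and 1652 in YAP Tg and 53.7, 44.5 and 53.4 in control livers. For Spp1 the log2 difference was 2.63 (SE 0.067, adjusted p = 3.78e-10). Krt18, a keratin of simple epithelia that hepatocytes also express, averaged 213 in Tet1 KO YAP Tg, 615 in YAP Tg and 122 in control livers. Its partner Krt8 averaged 159.6 in Tet1 KO YAP Tg, 445 in YAP Tg and 125 in control livers. Spp1 made up much of the sum and was kept in the averaged fit (adjusted p = 0.00229). Hepatocyte markers, 10 in number, summed to less in Tet1 KO YAP Tg than in any control library, with Alb as the largest part. Among these markers 5 were lower and 1 higher (60%, against 39.0% of all genes tested). All 10 passed in either direction without control library 2. Of 18 stellate cell and fibroblast markers 6 were higher (33.3%, against 20.2% of all genes tested) and 0 lower. Without control library 2, 10 passed. Col1a1, the fibrillar collagen, averaged 4.06 in Tet1 KO YAP Tg, 3.54 in YAP Tg and 1.76 in control livers. The 18 markers summed to 668.5 to 673 in Tet1 KO YAP Tg, 450.1 to 463.6 in YAP Tg and 597.4 to 667.4 in control livers. Of 15 endothelial markers 2 were higher and 3 lower (33.3%), and 3 passed without Tet1 KO YAP Tg library 1 or 2 or control library 3. Erythroid markers had 0 of 8 past the test with limma, 2 at an unadjusted p below 0.05, 3 past it without control library 1 and 2 past it with edgeR or DESeq2. Their sums were 338 to 366.8 in Tet1 KO YAP Tg and 337 to 585.6 in controls, with control library 2 the highest. Of 9 lymphocyte markers tested 1 was lower, of 4 adipose tissue markers 2 were lower, and the 2 pancreas acinar markers tested did not pass. The part of such cells in the levels of other genes was not tested.

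**Figure D5:**
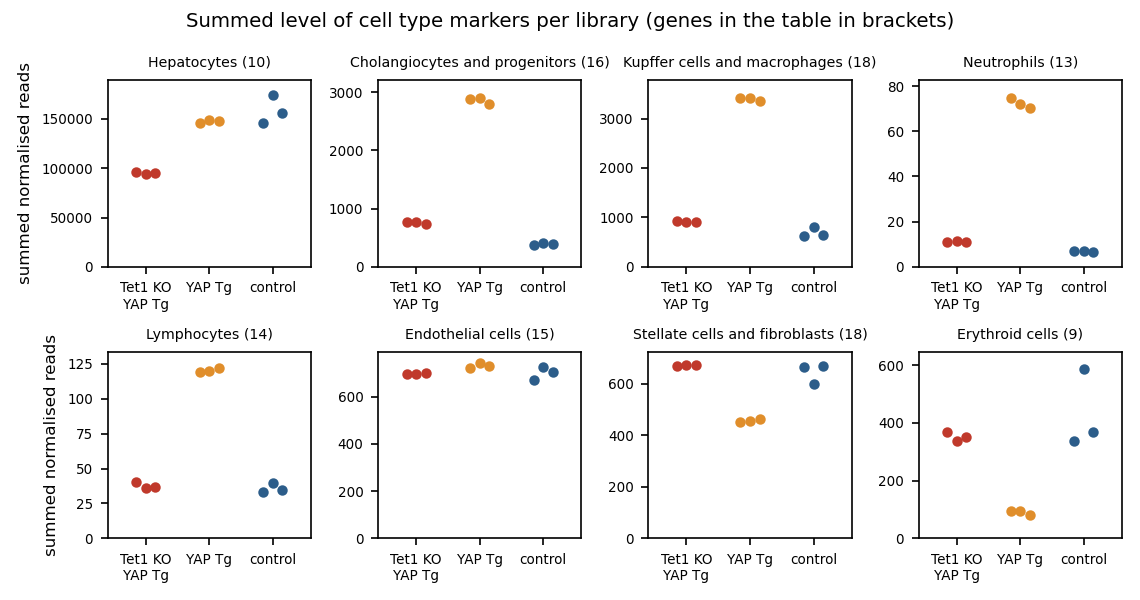
Summed normalised reads of the markers of 8 cell types in each library (vertical axes, each from 0) for Tet1 KO YAP Tg, YAP Tg and control livers, with the number of marker genes in brackets and 1 point per library. Macrophage, neutrophil, lymphocyte and cholangiocyte sums are highest in YAP Tg livers. For macrophage, neutrophil and cholangiocyte sums Tet1 KO YAP Tg livers lie between control and YAP Tg livers, and their lymphocyte sums overlap those of controls. The neutrophil rise over the controls rests on Lcn2.

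Of 21 interferon response genes, 7 were higher (33.3%, against 20.2% of all genes tested) and 0 lower (against 18.8%). In either direction their share was below the 39.0% of all genes tested. Ifit2, among the 7, averaged 35.3 in Tet1 KO YAP Tg, 106 in YAP Tg and 18.3 in control livers. Irf1, a transcription factor of the response, averaged 36.6 in Tet1 KO YAP Tg, 37.7 in YAP Tg and 20.6 in control livers. Without control library 2, 12 passed, and without control library 3, 4 passed, and neither Ifit2 (adjusted p = 0.14) nor Irf1 (0.14) passed in the averaged fit. Of 16 antigen presentation genes 5 were higher and 3 lower (50% passed, against 39.0% of all genes tested). The classical class I gene H2-D1 averaged 507 in Tet1 KO YAP Tg, 401 in YAP Tg and 321 in control livers. The peptide transporter Tap1 averaged 27.5 in Tet1 KO YAP Tg, 17.9 in YAP Tg and 15.1 in control livers. The class II gene H2-Ab1 was lower, at 15.4 in Tet1 KO YAP Tg, 65.4 in YAP Tg and 23.1 in control livers. Of 17 genes of TGF-beta signalling and matrix remodelling 3 were higher and 2 lower (29.4% against 39.0% of all genes tested), and Spp1 was the largest riser. Smad7, an inhibitor of the pathway, averaged 8.73 in Tet1 KO YAP Tg, 19.3 in YAP Tg and 5.52 in control livers.

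The authors' deposited table holds their own comparison of these groups. It gives 5204 genes at a false discovery rate below 0.05, of which 2642 are higher and 2562 lower in Tet1 KO YAP Tg in the authors' deposited table. Of these 5204 genes in the authors' deposited table, 4865 passed here in the same direction and 0 passed here in the opposite direction. The direction of those that did not pass here was not counted. The same libraries enter both comparisons, so these counts give no independent support.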

How the data were processed

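Liver RNA was sequenced in 12 libraries, of which 9 are used here, 3 each of Tet1 KO YAP Tg, YAP Tg and control mice. The submitters' processing notes name TopHat2, featureCounts and edgeR and the build mm10 for the values the authors deposited, without versions, options or order. The deposited values of the 9 libraries are a normalised signal. All of their non-zero values were whole multiples of the value of 1 read within 0.02 of a read, and the columns summed to between 846970 and 1184330. The depth so recovered was 19082417 to 25067861 reads per library. The 3 decitabine columns hold TPM values by the authors, another unit, and were not used. The authors' log2 fold changes and mean log2 expression, likelihood ratio score, and p-values with false discovery rates are named as such per the file headers. They were used to count the authors' calls. These are reads, so intervals cover counting error only.

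Values were tested as log2(value + 0.5) with limma 3.58.1 in R 4.3.3, with an intensity trend in the variance, all 9 libraries in 1 fit and no covariate. Fold changes on this scale understate changes of genes with few reads. Genes needed 0.5 or more in 3 or more libraries, tests are two-sided, and p-values were adjusted by Benjamini and Hochberg over the 13730 genes tested. The 86 genes tested with at most 3 reads in a group are given as ratios of reads with exact 95% intervals where named. The script was tested on simulated data with known changes. Alternatives were pseudocounts of 0.1 and 2, no filter, a filter at 2, median-of-ratios scaling, the 6 libraries of both groups alone, a replicate block, edgeR 4.0.16 and DESeq2 1.42.0 on the recovered reads, near-identical libraries averaged, and each library left out. Symbols were matched to RefSeq, 17759 of 18591 by symbol and 753 by synonym, and coordinates are those of GRCm38.p6. Strand use in counting is not given in the sources used here, so overlapping and antisense genes may share reads.

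The genes named are the 12 largest rises and falls that passed with a group mean of at least 5 and no overlap of libraries (at most 2 per symbol stem, predicted genes left out), the 12 with the most reads among those changed at least 2-fold, the 8 per direction beyond both other groups, and up to 4 passing members and the highest member of each of 48 lists, plus a short fixed set. Of the genes so chosen, 3 are not reported here. The members and lists were chosen with earlier results of these data known. The lists are described by counts and medians without a test. Each count is to be read beside the 39.0% of all genes tested that passed, 20.2% higher and 18.8% lower.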

Additional observations from a re-analysis of the deposited data

How the results depend on the processing

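The counts of genes called stayed within 1.5 times of those reported under other pseudocounts, filters and scaling, under edgeR (5238) and DESeq2 (4876) on recovered reads, and in the 6 libraries alone (4161). Averaging near-identical libraries changed them to 189 genes in Tet1 KO YAP Tg against control (90 higher, 99 lower), 2974 against YAP Tg and 4507 in YAP Tg against control, by leaving 1 transgenic library per group and the spread of the controls. Leaving out 1 library gave 4032 to 7488 genes (2069 to 3902 higher, 1938 to 3586 lower) against control, 8598 to 10236 against YAP Tg and 9241 to 10292 in YAP Tg against control, the highest each time without control library 2. Of 224 named genes with a test, 216 or more kept their side of the threshold in each of the fits with other pseudocounts, filters, scaling, edgeR, DESeq2 and the block. Most of the named genes that had passed lost their call in the averaged fit. With the replicate number as a block, 5253 genes were called. Same-numbered Tet1 KO YAP Tg and control libraries deviated together with correlations of 0.061, 0.073 and 0.449, and not every library correlated best with its own number, so the numbers were not taken to pair the libraries. Depth limits genes with few reads, 86 of which had at most 3 reads in a group.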

Other observations

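All 9 libraries held reads of genes of the Y chromosome. Ddx3y, an RNA helicase gene of that chromosome, was at 189.7, 195 and 189.9 in Tet1 KO YAP Tg livers, against 221, 213 and 211 in control livers, and Kdm5d, a histone demethylase gene, at 34.96, 36.2 and 38.6 in Tet1 KO YAP Tg livers, against 33.5, 36.2 and 32.3 in control livers. Xist varied within every group, at 0.0894, 12.2 and 3.73 in Tet1 KO YAP Tg, 5.83, 0.137 and 0.182 in YAP Tg and 12.9, 15.3 and 0.119 in control livers. These genes were looked at after their values were seen.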
